A study of Mus musculus with 6 samples.

Results

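The genes described here encode the machinery that carries calcium across the mitochondrial membranes: the calcium uniporter of the inner membrane with its subunits and regulators (Mcu, Mcub, Micu2, Smdt1 and Mcur1), the inner membrane exchangers Letm1 and Slc8b1, and the outer membrane channels Vdac1 and Vdac2. These 9 genes were taken by symbol for their place in this machinery, with earlier results of these data known, and matched to 9 of the 23886 Ensembl gene identifiers measured. RNA came from AML12, a hepatocyte line established from the liver of a mouse transgenic for human transforming growth factor alpha, a background shared by every sample. Poly(A) RNA of 6 samples was sequenced, 3 of cells given no treatment (Control 2, 3 and 4) and 3 of cells placed in a static magnetic field, one that is constant in time (SMF 1, 2 and 3). The sources used here do not state field strength, exposure time or whether the samples were separate cultures, so the p-values below measure the spread between these samples, which may be technical. The series' title names calcium influx and cellular respiration in liver injury, and the comparison asks here whether the transcripts for mitochondrial calcium transport differ between exposed and untreated cells.

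The uniporter is a calcium-selective pore driven by the voltage across the inner membrane, and calcium that enters the matrix stimulates several dehydrogenases that feed the respiratory chain. MCU forms the pore, and MCUB is a paralog that lowers its conductance when it joins the complex. EMRE, the small protein encoded by Smdt1, is needed for the animal pore to conduct and ties it to its gatekeepers, MICU2 among them, which keep the pore shut at resting calcium. Calcium leaves the matrix through the sodium-calcium exchanger NCLX, encoded by Slc8b1, and LETM1 exchanges cations for protons. Before it meets the uniporter, calcium crosses the outer membrane through the VDAC channels, which also carry ATP, ADP and other small metabolites.

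Library totals recovered from the steps in the deposited values ran from 15514530 reads (SMF 1) to 18200516 (Control 3), and the groups overlapped. All of these reads lay in the measured genes, so the totals count reads assigned to genes and not all reads sequenced or mapped. Pairs of libraries correlated at 0.9865 to 0.9927 across 11114 genes, which are not independent replicates. Of 9 hepatocyte markers, 7 were measured above 1 FPKM (fragments scaled for gene length and library total) in some library, among them Hnf4a at 87.0 to 95.5 FPKM and Alb at 26.3 to 34.1, while Cps1 and Apoa1 stayed below 1 FPKM in all 6. The hepatocyte markers summed to 3571 to 3772 FPKM in the untreated group and 3748 to 3958 in the exposed group, most of it from the keratins Krt8 and Krt18; the other 7 summed to 155.8 to 175.9 and 163.2 to 178.8 FPKM. The bile duct keratin Krt19 stood at 1024 to 1163 FPKM, and 4 bile duct markers, of which Epcam was near 0, summed to 1123 to 1147 FPKM without and 1094 to 1236 with the field. The part of these markers in the results was not tested. The endothelial markers Pecam1 and Stab2, the immune marker Ptprc and the stellate cell marker Rgs5 were at or near 0. The macrophage marker Cd68 was at 2.05 to 3.08 FPKM and the stellate cell markers Col1a1 and Des at 0.808 to 1.18 and 0.478 to 0.735. Adgre1, Clec4f, Kdr and Lrat, also looked up for these cell types, were not matched to a measured identifier.

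The pore subunit Mcu (ENSMUSG00000009647) was measured at 10.6, 9.88 and 10.3 FPKM in Control 2, 3 and 4, and at 9.27, 9.14 and 9.66 FPKM in SMF 1, 2 and 3. All 3 exposed libraries lay below every control, with a gap that was small beside the level itself. Between 998 and 1247 reads stood behind each value, a counting error of at most 3.17%. In bulk RNA a lower level per cell and fewer cells with the transcript cannot be told apart.

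Its inhibitory paralog Mcub was not detected. All 6 libraries held 0 reads on its 1318 bases, where the limit that a count of 0 allows (3 reads per library) corresponds to 0.125 to 0.147 FPKM. Against that limit Mcu was at least 63.2-fold higher in SMF 1, where the margin was smallest, and at least 79.0-fold higher in Control 3, where it was widest. Such limits and the counting errors cover counting alone. None of 10 genes that every cell uses, such as Actb and Tbp, was at 0 in any library. Such genes are read in any working library, so this does not bear on the 0 of Mcub. In all, 1882 of the 23886 identifiers were at 0 in all 6 libraries. With no reads on Mcub, its length could not be checked against the deposited values.

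Smdt1 (ENSMUSG00000022452), the gene for EMRE, stood at 39.4, 45.7 and 40.2 FPKM in Control 2, 3 and 4, and at 54.6, 46.2 and 51.5 FPKM in SMF 1, 2 and 3. Each SMF library was above each control, although SMF 2 and Control 3 nearly met. The values rest on 968 to 1370 reads per library. In the GENCODE M21 gene models, 245 of the 1479 exon bases of Smdt1 are shared with Pheta2 on the same strand. Pheta2 itself held at most 3 reads in any library. The sources used here do not say how reads on shared bases were assigned, so the Smdt1 level may leave some out.

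The gatekeeper subunit Micu2 (ENSMUSG00000021973) was low, at 3.30, 3.85 and 3.62 FPKM in untreated libraries and 3.05, 3.55 and 3.16 in exposed libraries, and the groups overlapped. Only 146 to 216 reads stood behind it, so counting error alone reached 8.28%. Mcur1 (ENSMUSG00000021371), a scaffold factor for uniporter assembly, was the lowest of the detected members, with 2.15, 2.48 and 1.90 FPKM in untreated libraries and 2.32, 2.43 and 1.86 in exposed libraries. These values overlapped completely apart from SMF 3, just below the lowest control.

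Of the exchangers, Letm1 (ENSMUSG00000005299) was at 17.3, 18.5 and 19.6 FPKM in untreated libraries and 20.6, 18.6 and 19.0 in exposed libraries, with SMF 1 alone above the control range. Slc8b1 (ENSMUSG00000032754), which encodes the main route of calcium out of the matrix, was at 14.2, 15.2 and 16.2 FPKM in untreated libraries and 17.9, 16.2 and 17.2 in exposed libraries. SMF 1 and SMF 3 lay above all controls, while SMF 2, at 16.16 FPKM, fell just under Control 4, at 16.21. The longest coding transcript of Slc8b1 shares a stretch of at least 100 bases, at 90% identity or more and at most 188 bases long, with transcripts of 856 other genes. Stretches this short were counted for Slc8b1 alone, and the other members were compared only at 300 bases or more. The sources used here do not say how reads that map to several places were treated.

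Vdac1 (ENSMUSG00000020402) was the most abundant member, at 149.5, 157.4 and 153.7 FPKM in untreated libraries and 149.4, 148.2 and 153.7 in exposed libraries. Vdac2 (ENSMUSG00000021771), another outer membrane channel, which also binds the cell death effector BAK, was at 45.7, 45.5 and 45.7 FPKM in untreated libraries and 44.4, 45.7 and 44.2 in exposed libraries. For Vdac1, SMF 3 equalled Control 4 and the other exposed libraries lay just below the lowest control; for Vdac2, SMF 1 and SMF 3 lay below the narrow control range and SMF 2 at its top. Both varied little between libraries, with a coefficient of variation over all 6 of 2.33% for Vdac1 and 1.57% for Vdac2, against 13% for Smdt1 and 12.1% for Mcur1. A Vdac2 pseudogene, Gm7832, matches 881 bases at 97.05% identity and was listed at 0 in the libraries. Exons of Vdac2 and of Comtd1, on the opposite strand and near 6.66 FPKM, share 25 bases.

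**Figure D1:**
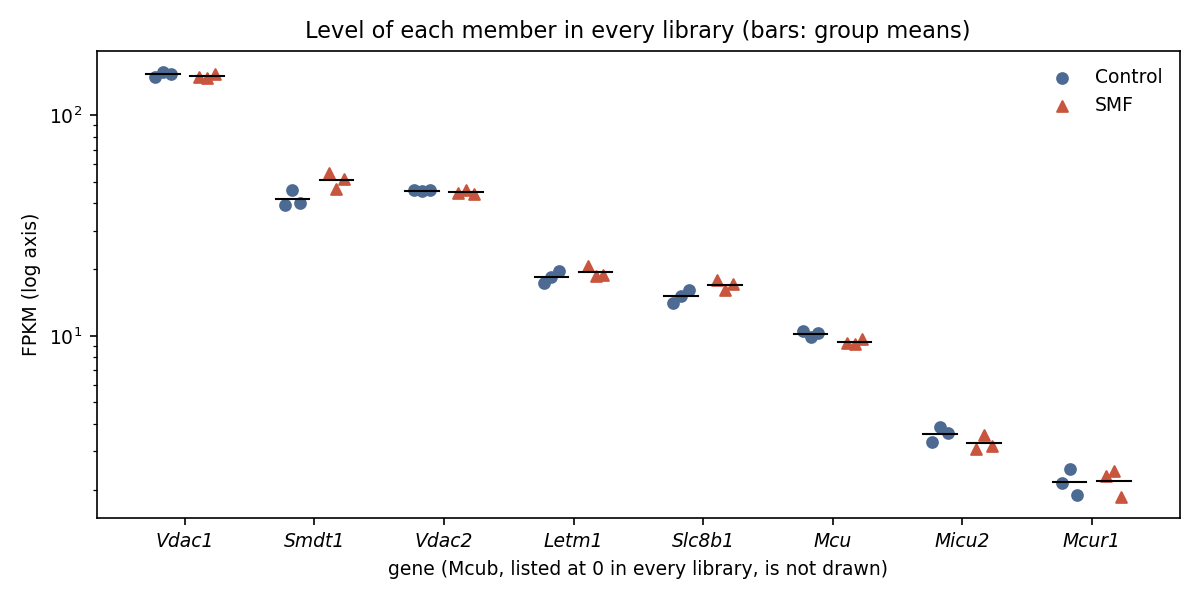
FPKM of the 8 detected members in each library on a log axis, with controls as circles, SMF libraries as triangles and group means as bars. Smdt1 is higher and Mcu lower in all 3 SMF libraries than in any control, and levels span from Vdac1 near 152.0 FPKM on average to Mcur1 near 2.19.

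Averaged over the 6 libraries, the order of levels was Vdac1 (152.0 FPKM), Smdt1 (46.3), Vdac2 (45.2), Letm1 (18.9), Slc8b1 (16.1), Mcu (9.80), Micu2 (3.42) and Mcur1 (2.19). Neighbours in this order were compared within libraries by an exact sign-flip permutation test, two-sided, over 7 pairs. For 6 of the 7 pairs the higher gene led in 6 of 6 libraries, each at the smallest p that 6 libraries allow (exact test, adjusted p = 0.0365). The pairs were taken from the mean order of these same libraries, so this p describes how steady the order was across them. Smdt1 and Vdac2 could not be ordered: Smdt1 led in 4 of 6 libraries, by 1.02-fold on average (range 0.863 to 1.23, exact p = 0.656). The libraries where Smdt1 led were the 3 exposed libraries and Control 3. Letm1 exceeded Slc8b1 in every library, by 1.10- to 1.22-fold, though their ranges over all libraries overlapped.

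Relative to the pore subunit within the same library, the mean level per length was 4.76 for Smdt1, 1.94 for Letm1, 1.66 for Slc8b1, 0.350 for Micu2 and 0.225 for Mcur1, with Mcu set to 1. Per length, transcripts for EMRE exceeded those for the pore in every library, from 3.74 in Control 2 to 5.88 in SMF 1, while transcripts for the gatekeeper MICU2 were fewer, from 0.313 to 0.390. On the outer membrane, Vdac1 exceeded Mcu 15.6-fold, and Vdac2 ran at 0.297 of Vdac1.

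These ratios depend on the gene length used. The deposited values divide by the exons of all annotated transcripts together, which is 6936 bases for Mcu, while its longest coding transcript has 2872; for Smdt1 the lengths are 1479 and 705 bases. With reads divided by the longest coding transcript, a choice made after seeing the data, Mcu came to 23.7 FPKM and passed Slc8b1 (19.3) in 6 of 6 libraries, at the same exact adjusted p of 0.0365 as the opposite order had before, so that Slc8b1 over Mcu became 0.819 in place of 1.66. Vdac2 (110.3) then stood above Smdt1 (97.1), again without a clear order (exact p = 0.125). Vdac2 over Vdac1 became 0.560 and Vdac1 over Mcu 8.34. Smdt1 over Mcu stayed near its first value, at 4.13, and Micu2 over Mcu became 0.192. Which transcripts these cells use was not measured, so the order of Mcu and Slc8b1 is not settled here. A change of length multiplies a gene's level by the same factor in every library, so the ratio of group means stays as it is, but folds on the log2(FPKM + 1) scale used below were not fitted at the other length.

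**Figure D2:**
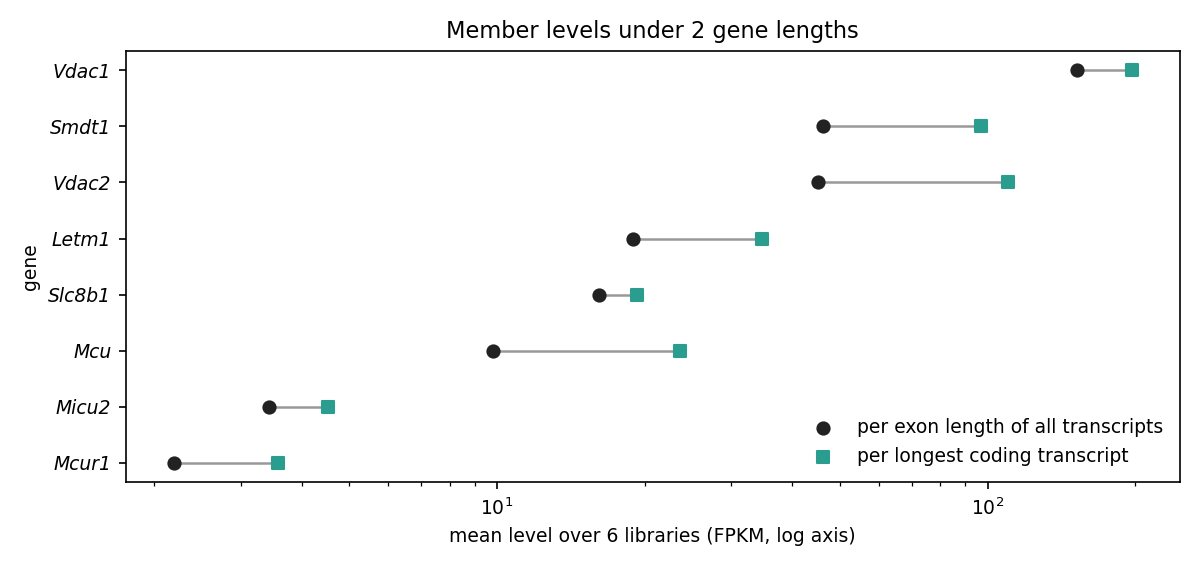
Mean level of the 8 detected members over 6 libraries on a log axis, with reads divided by the exon length of all transcripts (circles, as deposited) or by the longest coding transcript (squares). Mcu moves from 9.80 to 23.7 and passes Slc8b1, which moves from 16.1 to 19.3.

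SMF and control libraries were compared by limma on log2(FPKM + 1) for the 11114 genes with at least 1 FPKM in at least 3 libraries, with p-values adjusted over all of them; 8 of the 9 members entered and Mcub did not. No member passed the threshold of 0.05, nor did any other gene (0% called, in either direction). At an unadjusted p under 0.05, Smdt1 and Slc8b1 were higher, where 9.41% of genes were, and Mcu was lower, where 8.57% were; 18% of genes passed in either direction. On the log2(FPKM + 1) scale, 4 tested members had a fold above 0 and 4 below, where all genes tested had 5189 above and 5925 below. The median was -0.0081 for the members beside -0.0095 over all genes tested. Corrected for GC content and length, these medians were 0.0356 and -0.0004.

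Smdt1 had the largest difference. Its mean was 41.8 ± 3.45 FPKM in untreated libraries and 50.8 ± 4.23 in exposed libraries (SD, n = 3), a ratio of 1.22. The log2 fold was 0.28 (SE 0.07, limma adjusted p = 0.164), with a 95% interval from 1.08- to 1.36-fold, higher in 3 of 3 exposed libraries. Separation of this kind was common: 11% of tested genes had all 3 exposed libraries above all controls, as Smdt1 did, and 12.7% had them below, as Mcu did, 23.7% in all. By limma-voom on the recovered reads, a test added after the data were seen, Smdt1 was higher (log2 fold 0.28, adjusted p = 0.0238) and was the 1 member called, where 2.18% of genes were called higher and 2.41% lower, 4.59% in all. This call was lost without Control 2 (adjusted p = 0.0936), Control 4 (0.159), SMF 1 (0.15) or SMF 3 (0.132), and remained without Control 3 (0.0143) or SMF 2 (0.00133).

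Mcu was at 10.2 ± 0.339 FPKM in untreated libraries and 9.36 ± 0.268 in exposed libraries, a ratio of 0.914. The log2 fold was -0.12 (SE 0.05, limma adjusted p = 0.261; limma-voom adjusted p = 0.214), lower in 3 of 3 exposed libraries, with a 95% interval from 0.854- to 0.996-fold. Slc8b1 was at 15.2 ± 1.03 and 17.1 ± 0.868 FPKM, a log2 fold of 0.16 (SE 0.06, limma adjusted p = 0.237), with an interval from 1.01- to 1.23-fold. Neither passed over all genes, and each interval reaches close to no difference.

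For the remaining members the intervals included no difference. Letm1 had a log2 fold of 0.07 (limma adjusted p = 0.574), which was 0.02 without Control 2 or without SMF 1, and Micu2 of -0.11 (0.483). Mcur1, at 0.01 (0.968), had the widest interval of the 8, from -0.24 to 0.26 on the log2 scale, and its sign turned below 0 after rescaling to TPM. The channels were measured most tightly: the interval for Vdac1 ran from 0.928 to 1.03 and that for Vdac2 from 0.93 to 1.04. Larger differences lie outside the 95% intervals of this fit, but other fits moved these bounds. Corrected for GC content and length, limma gave 0.9125 to 1.007 for Vdac1 and 0.962 to 1.054 for Vdac2. With the same correction, limma-voom gave 0.9065 to 1.004 and 0.9567 to 1.068.

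**Figure D3:**
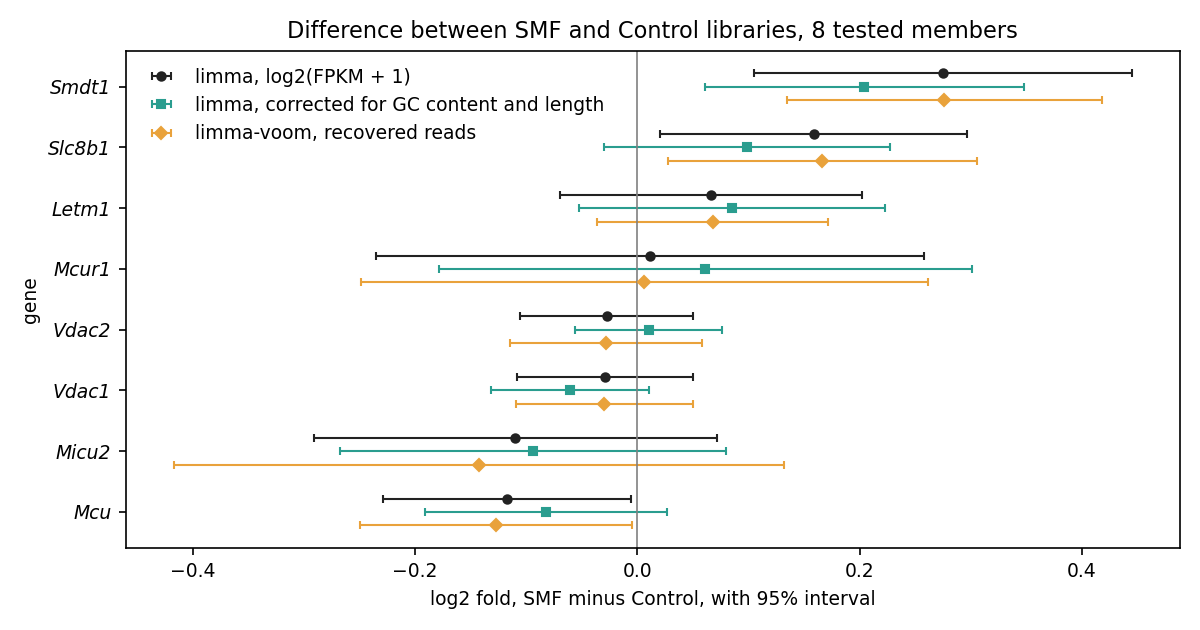
Log2 fold of SMF over control libraries for the 8 tested members, with 95% intervals, by limma on log2(FPKM + 1), by limma after correction for GC content and gene length, and by limma-voom on recovered reads. Smdt1 lies above 0 under all 3, Mcu lies below 0 under all 3 and its corrected interval includes 0, and the intervals of Vdac1 and Vdac2 include 0 under all 3.

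The median fold differed with gene length. It was 0.08 on the log2 scale for the 535 tested genes of 1000 to under 1500 bases, the class of Smdt1, where 72.5% had a fold above 0. It was -0.06 for the 3307 genes of 6000 bases and over, the class of Mcu, Letm1 and Mcur1, where 25.5% did. With GC content and length corrected for in every library, the log2 fold of Smdt1 was 0.20 (limma adjusted p = 0.271) and that of Mcu -0.08 (0.517). Slc8b1, in a class of 4136 genes with a median of -0.01, went from 0.16 to 0.10 and Letm1 from 0.07 to 0.09, while Vdac2 turned from -0.03 to 0.01. Smdt1 was not called by limma-voom with this correction (adjusted p = 0.126), where 0.597% of genes were called higher and 0.253% lower, 0.85% in all.

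**Figure D4:**
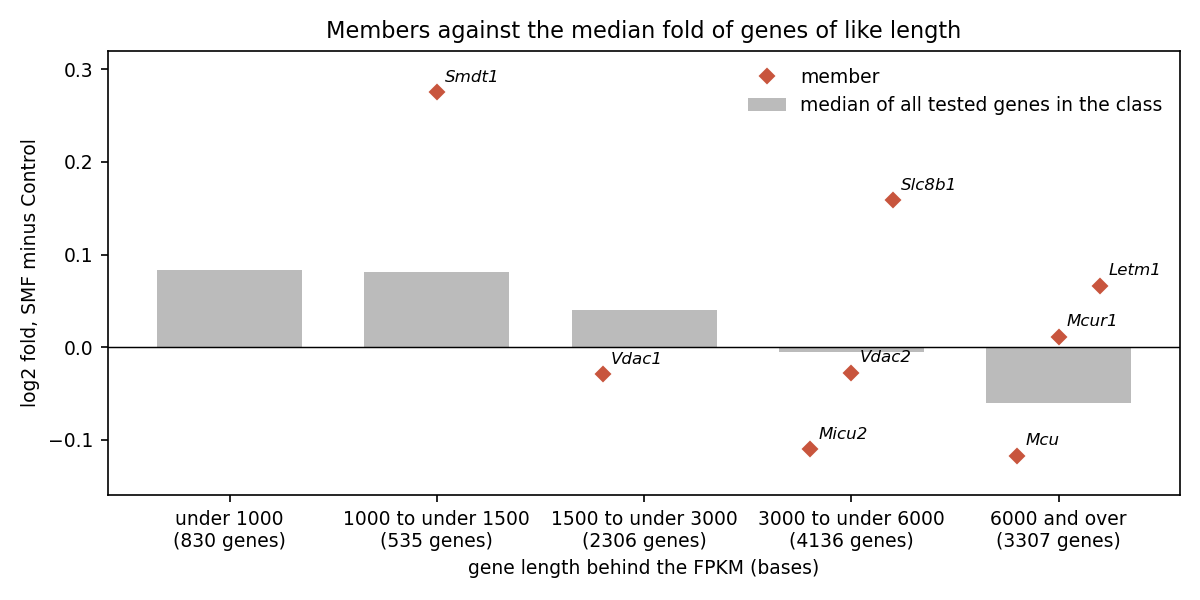
Log2 fold of each tested member (diamonds) beside the median of all tested genes in its length class (bars). Smdt1, at 0.28, stands above the 0.08 of its class, and Mcu, at -0.12, stands below the -0.06 of the longest class, where Letm1 and Mcur1 are above 0.

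Ratios within a library do not depend on how libraries are scaled to each other. Smdt1 over Mcu was 3.74, 4.63 and 3.91 in Control 2, 3 and 4, and 5.88, 5.05 and 5.34 in SMF 1, 2 and 3, with each exposed library above each untreated one. The ratio was 1.33-fold higher in exposed libraries (4.09 ± 0.474 against 5.42 ± 0.422, SD, n = 3; exact permutation p = 0.1, two-sided, the smallest that 3 against 3 can give). Over the 7 ratios compared, its adjusted p was 0.233. Corrected for GC content and length, the log2 difference went from 0.41 to 0.29.

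Slc8b1 over Mcu was 1.34, 1.54 and 1.58 in untreated libraries and 1.93, 1.77 and 1.78 in exposed libraries, 1.23-fold higher, a log2 difference of 0.30 that became 0.18 when corrected for GC content and length. Letm1 over Mcu, 1.15-fold higher, was also above every control in 3 of 3 exposed libraries (exact permutation p = 0.1 and adjusted p = 0.233 for both); its log2 difference of 0.20 became 0.13 without Control 2. All 3 ratios share Mcu as denominator, so they are not independent, and Mcu itself was below every control in each exposed library. Of the other 11113 tested genes, 32.9% had a ratio to Mcu above every control in all 3 exposed libraries and 1.21% below, so such a separation was common and is nothing particular to these members. Letm1 and Slc8b1 overlapped between groups when not set against Mcu. Those of Micu2 (0.352 ± 0.0384 and 0.348 ± 0.0346), Mcur1 and Vdac1 to Mcu overlapped between groups. Vdac2 over Vdac1 was 0.297 ± 0.00806 in untreated libraries and 0.298 ± 0.0105 in exposed libraries (exact permutation p = 0.9).

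**Figure D5:**
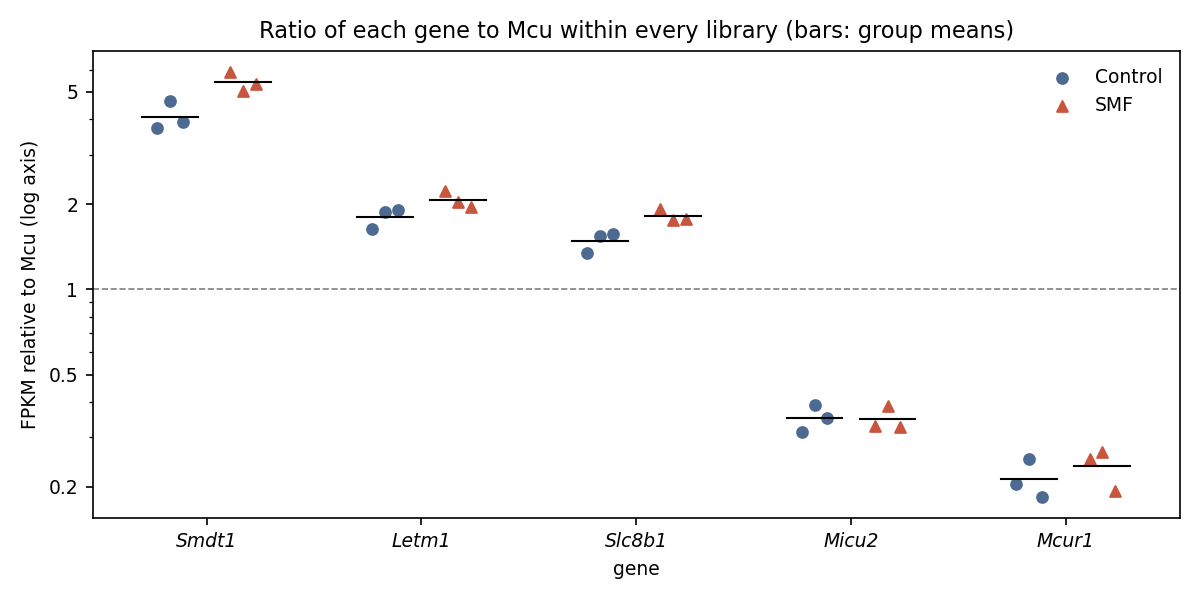
FPKM of 5 genes relative to Mcu in the same library on a log axis, with controls as circles, SMF libraries as triangles and group means as bars; the dashed line marks equality with Mcu. Smdt1, Letm1 and Slc8b1 are higher relative to Mcu in all 3 SMF libraries, as are 32.9% of tested genes, while Micu2 and Mcur1 overlap.

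The start regions of Mcu and Smdt1 are shown because this pair had the largest shift in ratio. RefSeq promoter windows on GRCm38.p6 were matched for 7 of the 9 members, Slc8b1 and Vdac2 being those not matched; the 250 bases before the start were searched on both strands. The GC box was searched as GGGCGG. The box bound by the factor NF-Y was searched as CCAAT. The TATA box was searched as TATAAA, and the motif of the respiratory gene factor NRF1 was searched as well. Capitals mark the matches, and CCAAT on the other strand reads ATTGG.
Mcu, chr10:59616693-59616942, minus strand: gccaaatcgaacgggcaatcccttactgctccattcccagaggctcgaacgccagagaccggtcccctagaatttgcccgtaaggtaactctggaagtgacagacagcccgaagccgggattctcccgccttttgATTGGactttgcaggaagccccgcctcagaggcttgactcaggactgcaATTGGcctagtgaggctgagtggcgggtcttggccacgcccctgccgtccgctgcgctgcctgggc
Smdt1, chr15:82345796-82346045, plus strand: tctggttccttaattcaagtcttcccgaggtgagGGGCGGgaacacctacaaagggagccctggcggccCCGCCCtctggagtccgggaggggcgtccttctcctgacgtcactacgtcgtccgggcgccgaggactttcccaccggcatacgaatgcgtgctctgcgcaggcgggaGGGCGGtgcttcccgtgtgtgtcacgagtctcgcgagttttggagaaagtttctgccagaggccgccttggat
The Mcu window held 2 CCAAT boxes and 0 GC boxes, and the Smdt1 window 3 GC boxes and 0 CCAAT boxes. Among all 32851 windows of this length, 33.8% held a CCAAT box, 32.7% a GC box, 12.4% a TATA box and 3.7% the NRF1 motif. No member's window held TATAAA or the NRF1 motif. All members with a window except Mcub had a GC content of 60.4% to 70.8%, above the median of 52.4%, while Mcub had 48.0%. The Mcub window held 8 CpG steps (C followed by G), above the median of 6 and below the 14 to 23 of the other members. Whether these contents go with detection was not tested. A match is a description of letters and not of binding.

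Genes linked to the uniporter and VDAC, import factors and matrix enzymes among them, were followed in 5 lists, none with a gene past limma's threshold. In the list of close relatives, both tested genes had a fold below 0. Letm2, too low to be tested, was at 0.591, 0.600 and 0.487 FPKM in untreated and 0.614, 0.608 and 0.700 in exposed libraries. Its groups did not overlap, as was so for 23.7% of tested genes, but only 60 to 91 reads stood behind each value. Counting error reached 12.9%, more than the gap between Control 3 and SMF 2. Vdac3, the third outer membrane channel, was at 27.2 ± 1.26 FPKM in untreated libraries and 26.5 ± 1.56 in exposed libraries, and Micu3, a MICU paralog best known from the nervous system, at 1.65 ± 0.235 and 1.39 ± 0.269. Corrected for GC content and length, the fold of Vdac3 turned from -0.04 to 0.06.

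Among 13 genes of uniporter assembly, turnover and other inner membrane calcium handling, 8 had a fold above 0 and 5 below (median 0.04). The most abundant were the prohibitins Phb and Phb2, scaffold proteins of the inner membrane, at 65.7 ± 0.353 and 66.1 ± 0.14 FPKM in untreated libraries and 69.7 ± 4.91 and 69.4 ± 0.937 in exposed libraries. Slc25a24, a calcium-regulated carrier of ATP-magnesium and phosphate, is named after its values were seen: it was at 42.7, 41.9 and 44.2 FPKM in untreated libraries and 33.4, 40.8 and 35.3 in exposed libraries. limma-voom called it lower (adjusted p = 0.0203), whereas limma (0.176) and limma-voom corrected for GC content and length (0.0915) did not. Its limma-voom call was lost without Control 4 (0.154), SMF 1 (0.147) or SMF 3 (0.141).

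In the list of contacts between endoplasmic reticulum and mitochondria, where calcium passes from store to uniporter, 5 of 13 genes had a fold above 0 and 8 below (median -0.02). Hspa9, the chaperone that bridges the inositol trisphosphate receptor and VDAC1, was at 194.8 ± 8.26 and 186 ± 5.96 FPKM, and Bcap31, an endoplasmic reticulum membrane protein, at 159.2 ± 1.56 and 156.9 ± 2.79. Among VDAC import factors and partners, 9 of 10 tested genes had a fold above 0, where 5189 of all 11114 tested genes did. The median was 0.08, or 0.04 corrected for GC content and length, and that correction turned the fold of Slc25a5 from 0.01 to -0.02. Slc25a5, the adenine nucleotide carrier of the inner membrane, was at 584.3 ± 6.41 and 588 ± 1.1 FPKM. Tspo, an outer membrane protein found beside VDAC, was at 331, 373.3 and 334.4 FPKM in untreated libraries and 438.2, 371.1 and 416.9 in exposed libraries, so that SMF 2 fell within the control range.

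limma-voom called Tspo higher (adjusted p = 0.0125), whereas limma (0.174) and limma-voom corrected for GC content and length (0.356) did not. At 1051 bases it belongs to the same length class as Smdt1. The call was lost without Control 4 (0.134), SMF 1 (0.104) or SMF 3 (0.0967). Among 12 mitochondrial enzymes and carriers that sense calcium, 5 had a fold above 0 and 7 below (median -0.02). Pdha1, a subunit of pyruvate dehydrogenase, was at 69.1 ± 1.97 and 69 ± 3.35 FPKM, and Idh3g, of isocitrate dehydrogenase, at 59.9 ± 1.53 and 62 ± 3.75.

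Across the 6 libraries, the genes whose log2(FPKM + 1) followed Mcu most closely among 4928 genes of at least 10 FPKM were Mak16 (Pearson r = 0.991), Firre (0.981) and Ahsa2 (0.976). Picked for likeness to Mcu, each also had all exposed libraries below all controls, as did 12.7% of tested genes. Mak16 went from 31.99, 29.2 and 30.3 FPKM in untreated libraries to 26.4, 26.3 and 27.6 in exposed libraries. These are the highest of many values over 6 points, which share the 2 groups, and are given as a description.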

How the data were processed

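The authors deposited FPKM values per Ensembl gene, 1 file per library. Per the submitters' processing notes, HISAT2 2.1.0, Bowtie2 2.2.3 and build GRCm39 were used, in roles not specified; the sources used here do not name the counting tool or annotation release. Per the labels' protocols, libraries were made from poly(A) RNA with random primers, with no strand marking stated. Groups and replicate numbers came from the titles. Symbols and exon lengths came from GENCODE M21 (GRCm38), which named 23521 identifiers. Each FPKM was a whole number of reads over gene length and library total (tolerance 0.02 reads; 96.91% of 22004 genes above 0 at the M21 exon length, the rest at a searched length), which gave the reads.

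limma 3.58.1 in R 4.3.3 was fitted to log2(FPKM + 1) with a variance trend for genes at 1 FPKM or more in at least 3 libraries (11114), two-sided, with Benjamini-Hochberg adjustment at 0.05. The fit was also run on simulated data, with the same spread beyond counting for every gene and no trend with GC content or length. These libraries do show a trend with length, so that run does not tell how the fit performs on them. Folds on the log2(FPKM + 1) scale understate the change of low genes. The GC content and length correction was a loess (span 0.3) within each library, for 99.47% of tested genes. Ratios used plain FPKM and exact permutation tests in Python 3.11.15. Alternatives were other pseudocounts, filters and scalings, a replicate block, each library left out, and limma-voom on recovered reads, added after seeing the data. All 9 members were named. From each further list, the 2 tested genes of highest mean FPKM were named, and the 3 genes most like Mcu at a mean of at least 10 FPKM. Letm2 and Slc25a24 were named from the lists outside this rule. Hk2, also too low to be tested, overlapped between groups and was not described. The members and lists were chosen with earlier results of these data known. A gene of the lists and its ratio are not reported here, and the list counts and the adjusted p-values of the ratios were computed without them.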

Additional observations from a re-analysis of the deposited data

How the results depend on the processing

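Folds above 0 for Smdt1, Slc8b1 and Letm1, and below 0 for Mcu, Micu2 and Vdac1, kept their sign under the alternatives run, where Micu2 did not enter the filter at 5 FPKM. Smdt1 ran from 0.20 to 0.35 on the log2 scale and Mcu from -0.16 to -0.08. Against 0 genes called higher and 0 lower by limma, a filter at 5 FPKM gave 6 and 2, and leaving out 1 library gave 0 to 2 and 0 to 1. limma-voom called 242 and 268, with 1 member, and 66 and 28 when corrected for GC content and length, with no member. The fold of Mcur1 turned to -0.0154 under TPM and ran from -0.053 to 0.0904 with 1 library left out; that of Vdac2 turned to 0.0102 under the correction and 0.0156 with limma-voom and the correction. The log2 difference of Micu2 over Mcu turned to 0.0069 with a pseudocount of 1 and ran from -0.0946 to 0.0637 with 1 library left out, and that of Vdac2 over Vdac1 from -0.0242 to 0.0266. Of the 9 places in the order of levels, 7 stayed in controls alone and 5 per longest coding transcript.

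Numbers 2 and 3 occur in both groups, with no stated pairing; deviations correlated at 0.058 and 0.046. With a replicate block on the numbers, the folds rest on Control 2, Control 3, SMF 2 and SMF 3 alone. This fit called 13 genes higher and 6 lower, no member among them. The fold of Mcur1 was -0.0811, and the log2 differences of Micu2 and Mcur1 over Mcu were 0.0285 and -0.0013. The causes were not tested. Depth limits Micu2 and Mcur1 most, with as few as 146 and 229 reads per library.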
